A study of Rattus norvegicus with 84 samples.

Results

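The transcripts of 10 heat shock chaperone genes were followed in the RNA of extracellular vesicles (EVs) from the brain and plasma of rats after stroke. The genes are the small heat shock proteins Hspb1 and Cryab, the J proteins Dnaja1 and Dnajb1, the HSP70 family members Hspa8 and Hsph1, the HSP90 isoforms Hsp90aa1 and Hsp90ab1, and the chaperonin pair Hspd1 and Hspe1. They were chosen by symbol, without a limit on any measured value, and make up 10 of the 18782 annotated genes in the deposited mRNA tables. The list was drawn up with earlier results of these data in view, so a count of its genes is a description of the list and not a test of it, and the adjusted p of a member comes from a fit over all genes and is no independent support for the list. The products of 8 of the genes work in the cytosol, while Hspd1 and Hspe1 encode the HSP60 and HSP10 subunits of the mitochondrial chaperonin, to which the name cytosolic does not apply.

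Chaperones bind unfolded or partly folded proteins. In the cytosol, small heat shock proteins hold aggregation-prone clients, J proteins deliver clients to HSP70, HSP110 proteins such as the product of Hsph1 exchange the nucleotide on HSP70, and HSP90 finishes the folding of kinases and receptors. Heat shock factor 1 (Hsf1) switches many of these genes on under proteotoxic stress, which includes ischemia, whereas Hspa8 and Hsp90ab1 are the constitutive forms that unstressed cells, neurons among them, express at high levels.

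mRNA libraries of brain-derived and plasma-derived EVs were available for 21 rats, in 7 groups of 3. The healthy group had no operation, and its age and sex are not given in the sources used here. In the other 18 rats, male Sprague-Dawley rats aged 8 to 12 weeks, the middle cerebral artery was occluded for 90 min, and on day 3 after stroke they received either saline (control group) or 200000 human neural stem cells (hNSCs group, from a line of human fetal telencephalon) through the carotid artery. EVs were collected 4, 10 and 31 days poststroke, that is, 1, 7 and 28 days after transplantation, from the ipsilateral hemisphere and from blood. No sham-operated group was included, so that surgery and stroke cannot be told apart in a comparison with healthy rats. The libraries of brain and plasma EVs of a rat carry the same animal number, which gives 21 pairs.

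Annotated genes held 569136 to 15587216 counts in the brain libraries and 6357675 to 31028559 in the plasma libraries. The 6 brain libraries of day 31 were the deepest in annotated genes, with at least 6379318 counts (29.9% to 51.9% of all counts), against at most 6105035 (3.18% to 25.3%) in the other 15. FPKM, the length-corrected values of the authors, are relative to all reads of a library and therefore move with this share. Counts per 1000000 annotated counts with TMM scaling (CPM) do not, and they are used for all comparisons between groups. Plasma EVs carried next to none of the summed level of 5 neuron markers (0 to 19 CPM, median 0.104, against 1095 to 5320 CPM in brain EVs), and brain EVs held at most 6.51 CPM of 5 T cell markers and 9.23 CPM of 5 neutrophil markers. Plasma EVs held 133 to 10781 CPM of red cell markers and 667 to 20237 CPM of platelet markers. Amounts of RNA per EV and numbers of EVs of a given cell type cannot be told apart in such bulk libraries.

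Promoters of the chaperone genes are shown because heat shock factors bind inverted repeats of GAA. RefSeq windows of build GRCr8, from 250 bases before to 50 bases after the transcription start, were found for 8 of the 10 genes (none for Cryab and Hsp90aa1). The count tables use build Rnor_6.0, so the coordinates below belong to GRCr8 alone. Windows were searched on both strands for a 3-unit repeat (GAANNTTCNNGAA or its reverse complement TTCNNGAANNTTC) and for the shorter 2-unit repeat that it contains (GAANNTTC or TTCNNGAA). The 3-unit repeat was present in 5 of the 8 windows and in 267 of all 33469 windows of this length (0.798%). The 2-unit repeat was present in 7 of the 8 windows, against 15.9% of all windows. Hsp90ab1 had neither in this window. Among 50 other chaperone genes with a window, 2 held the 3-unit and 15 the 2-unit repeat. A match is a description of the letters and no evidence of binding. Each stretch is written 5′ to 3′ on the strand of the gene with the repeat in capitals.
Hspa8, from -213 to -201 of the start (chr8:50080293-50080321, plus strand): gcgagcgtGAAAGTTCCAGAAcgctgcgg
Hspa8, from -55 to -43 (chr8:50080451-50080479, plus strand): cggaacccTTCTGGAAGGTTCtaagacag
Hsph1, from -36 to -24 (chr12:10427324-10427352, plus strand): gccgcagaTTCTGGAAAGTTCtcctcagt
Dnaja1, from 10 to 22 after the start (chr5:60638405-60638433, plus strand): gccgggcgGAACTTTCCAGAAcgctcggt
Hspd1, from -242 to -225 (chr9:64084256-64084285, minus strand): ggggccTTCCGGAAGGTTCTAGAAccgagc
Hspe1, from -65 to -48 (chr9:64084256-64084285, plus strand): gctcggTTCTAGAACCTTCCGGAAggcccc
Hspb1, from -129 to -122, 2-unit (chr12:26432412-26432441, minus strand): cttcaactagaGAAGTTTCcagatgggggc
Hspb1, from -109 to -102, 2-unit (chr12:26432392-26432421, minus strand): agatgggggcaGAACCTTCctggccctgcc
Dnajb1, from -11 to -4, 2-unit (chr19:41431134-41431163, minus strand): cgggaggggcgGAAGGTTCtggagggctgg
Dnajb1, from 18 to 25 after the start, 2-unit (chr19:41431106-41431135, minus strand): ggcgggatctgGAAGCTTCcgccggacggg
Hspd1 and Hspe1 lie head to head and share 211 of the 300 bases of their windows. Their 18-base repeat is the same site read from opposite strands, so it counts as a single site for both genes.

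Per transcript length, Hsp90ab1 was the most abundant of the 10 genes in every library of both tissues. In brain EVs its FPKM ranged from 3.16 to 179 (median 22.9, n = 21). Hsp90aa1 (median 7.55) came next and exceeded Hspa8 (4.15) in 19 of 21 rats. Dnaja1 (2.68) exceeded Hsph1 (2.43) in 13 rats against 8, so these neighbours did not differ beyond their spread. Hspd1 (0.927), Hspe1 (0.811), Cryab (0.795), Dnajb1 (0.623) and Hspb1 (0.596) followed, and each neighbour in this part of the order was the higher in only 11 to 14 rats.

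In plasma EVs Hsp90ab1 (median FPKM 288, from 110 to 452) was followed by Hspa8 (109) and not by Hsp90aa1. Hspa8 exceeded Hsp90aa1 (38.4) in 20 of 21 rats. Hsp90aa1 and Dnaja1 (34.4) could not be ordered, with Hsp90aa1 higher in 10 rats and Dnaja1 in 11, and the same held for Hspd1 (20.3) and Hspe1 (19.1), with 11 rats against 10. Hspb1 (9.37), Cryab (7.58), Hsph1 (7.42) and Dnajb1 (5.89) were lowest. Hsph1, which exceeded Hspd1 in all 21 brain libraries, was therefore among the least abundant members in plasma.

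**Figure D1:**
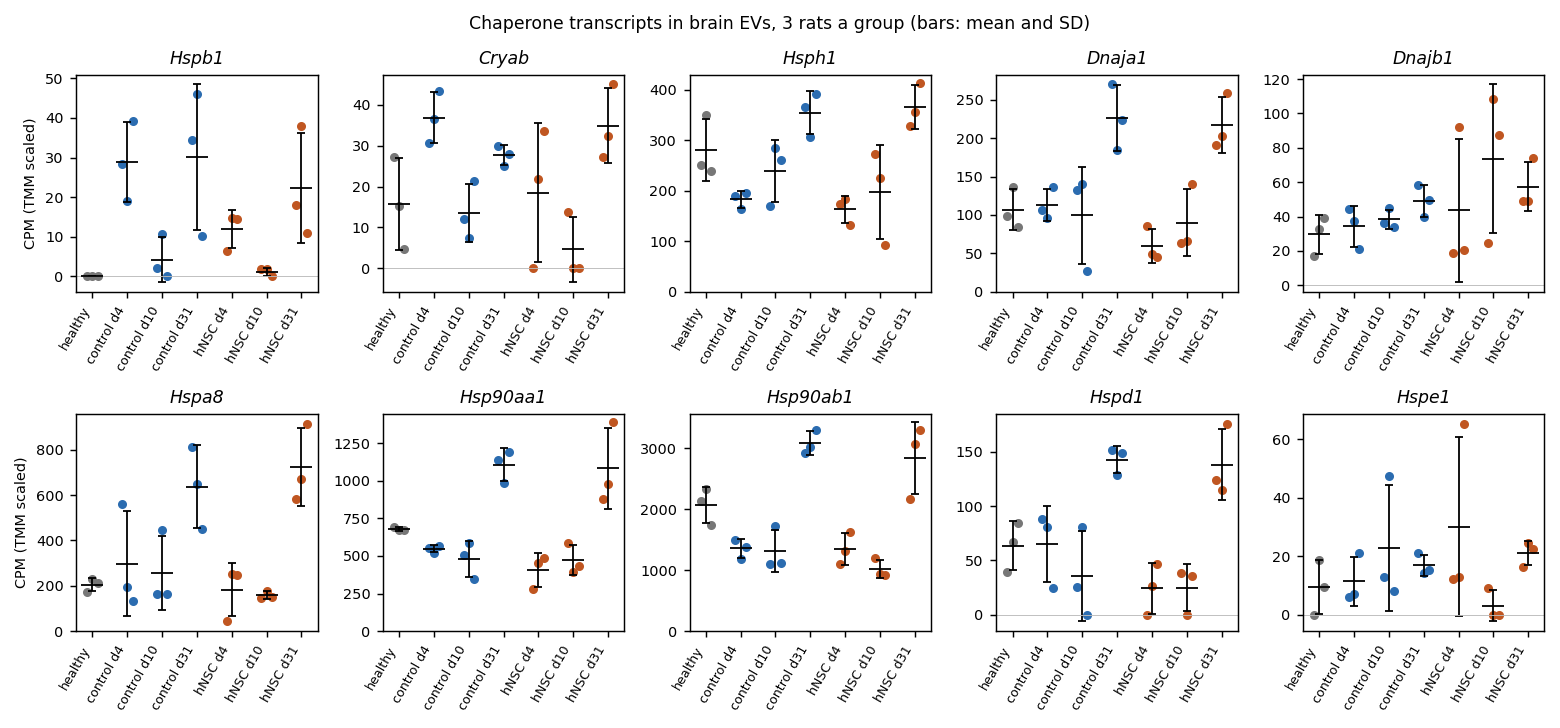
TMM-scaled CPM (vertical axes) of the 10 chaperone transcripts in brain EVs of the 7 groups, with 1 point a rat and a bar for the mean and SD of 3 rats. The 6 libraries of day 31 lie above all others for Dnaja1, Hsp90aa1 and Hspd1, and Hspb1 is at 0 in the 3 healthy rats.

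The first question was which chaperone transcripts of brain EVs differ between stroke and healthy rats. Hspb1, which encodes HSP27, a small heat shock protein known to be induced in reactive glia and vessels, was at 0 counts in all 3 healthy rats. At day 4 the control group held 28.3, 19.1 and 39.2 CPM (64 to 181 counts). Against a floor of 3 counts set for the 9730950 annotated counts of the healthy group, this mean is 90.9-fold higher. The floor allows for the sampling of counts alone. It does not cover libraries at 0 beside others of their group, such as 0, 77 and 118 counts of Cryab in hNSCs rats at day 4. The fold is therefore no firm lower bound. Hspb1 was the single member called at day 4 (edgeR quasi-likelihood test, adjusted p = 0.0214), where called means a Benjamini-Hochberg adjusted p under 0.05 over all genes tested and a change over 1.5-fold, and where 0.861% of 14515 genes were called. The call ended without control rat 1 (adjusted p = 0.0943) and without healthy rat 1, 2 or 3 (0.107, 0.0951 and 0.130), with every day 4 library still above every healthy one. After the counts of each library were thinned to those of the smallest, the adjusted p was 0.0555.

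Hspb1 then held 2.13, 10.7 and 0 CPM in the control group at day 10 and 34.4, 45.9 and 10.1 CPM at day 31. The means were 13.5-fold and 95.1-fold above the same healthy floor, with the same limit, and neither was called (edgeR adjusted p = 0.107 and 0.149). DESeq2 called Hspb1 at both days. The number of all genes that it called is not given, so these calls describe the setting only. The 3 hNSCs groups held 6.43, 14.8 and 14.6 CPM at day 4, 1.78, 1.77 and 0 CPM at day 10, and 18.1, 37.9 and 11 CPM at day 31. In each arm the lowest group mean was thus that of day 10. The depth of the day 10 libraries was also the lowest (569136 to 2955945 annotated counts), and its part in these low counts was not tested. The 3 comparisons with healthy rats share the same healthy libraries and are not independent of each other.

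Cryab, the αB-crystallin gene of the same family, held 27.3, 15.3 and 4.78 CPM in the healthy group and 30.7, 36.6 and 43.3 CPM in the control group at day 4. These ranges do not overlap, and the difference (log2 fold change 1.23 ± 1.25, SE) was not called (edgeR adjusted p = 0.83). Several sets of cell type markers moved with this comparison without overlap. Astrocyte markers summed to 1022 to 1066 CPM in healthy rats and 3127 to 3491 CPM in the control group at day 4. Markers of oligodendrocytes (2463 to 2821 and 3659 to 6057 CPM) and microglia (55.4 to 76.9 and 246 to 493 CPM) were also higher. The same held for endothelium (86.9 to 193 and 278 to 484 CPM), while neuron markers were lower (3805 to 4642 and 1623 to 2795 CPM). The part of these cell types in it was not tested.

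The major chaperones of brain EVs did not pass the test at any of the 3 days against healthy rats. Hsp90ab1 held 2143, 2329 and 1746 CPM in healthy rats and 1494, 1192 and 1385 CPM in the control group at day 4, with no overlap and a log2 fold change of -0.61 ± 0.23 (SE, edgeR adjusted p = 0.188). Hsph1 had a log2 fold change of -0.62 ± 0.31 (adjusted p = 0.375). Neuron markers summed to 3805 to 4642 CPM in healthy rats and 1623 to 2795 CPM in the 6 rats of day 4, and their part in these differences was not tested. Dnaja1, Dnajb1, Hspd1 and Hspe1 differed by less than their SE at day 4. No other member was called at day 10, where 0.572% of genes were, or at day 31, where 0.00689% were. Without an adjustment, 2 members at day 4, 2 at day 10 and 5 at day 31 had p under 0.05 with edgeR. The same held for 2152, 1840 and 1036 of all 14515 genes. At day 31 all 10 log2 fold changes against healthy rats were positive (median 0.82, against a median of 0.24 over all genes).

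Other chaperone genes were taken from a list of 60, of which 58 are in the table and 55 could be tested in brain EVs. A single one of the 55 was called at day 4. This was Hspa1a, the stress-inducible HSP70 gene, at 23.7, 11.1 and 16.9 CPM in healthy rats and 299, 114 and 129 CPM in the control group at day 4 (log2 fold change 3.41 ± 0.66, edgeR adjusted p = 0.0155). The groups do not overlap, but its call also ended without control rat 1 (adjusted p = 0.113) and without healthy rat 1, 2 or 3 (0.0892, 0.0817 and 0.1). Bag3, an HSP70 partner that is itself a stress gene, held 0, 13.7 and 13.5 CPM in healthy rats and 68.0, 55.4 and 59.8 CPM at day 4, without a call (2.70 ± 0.83, adjusted p = 0.12). Hsf1 itself, at 0 to 113 CPM in brain EVs, was called in no comparison. The near-identical twin of Hspa1a, Hspa1b, has no row in the table used here, so that the counts of Hspa1a may hold reads of both.

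The second question was how chaperone transcripts of brain EVs change from day 4 to day 31. The constitutive HSP90 gene Hsp90ab1 was called as higher at day 31 in both arms. Hsp90aa1 and Dnaja1 were also higher in both arms, and were called in the hNSCs arm alone. Hsp90ab1 rose in the control group from 1494, 1192 and 1385 CPM to 2919, 3023 and 3303 CPM, a log2 fold change of 1.18 ± 0.23 (edgeR adjusted p = 0.0285). It was the only one of the 10 members called in this comparison, where 0.248% of genes were called. In the hNSCs group Hsp90ab1 rose from 1098, 1312 and 1620 CPM to 2174, 3067 and 3294 CPM (1.08 ± 0.23, adjusted p = 0.0193). The day 31 and day 4 values of Hsp90ab1 do not overlap in either arm.

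The time course of the hNSCs arm was added after the values had been seen. In it 3 of 10 members were called, against 1.17% of all genes. Besides Hsp90ab1, the inducible isoform Hsp90aa1 rose from 277, 455 and 489 CPM to 881, 981 and 1389 CPM (log2 fold change 1.41 ± 0.26, edgeR adjusted p = 0.00532). Dnaja1, a J protein that works with Hspa8, rose from 85.3, 49.2 and 45.1 CPM to 191, 203 and 258 CPM (1.86 ± 0.46, adjusted p = 0.0431). In the control group the same genes had log2 fold changes of 1.02 ± 0.25 (Hsp90aa1, adjusted p = 0.104) and 1.00 ± 0.45 (Dnaja1, adjusted p = 0.431), which were not called. Their values did not overlap there either. Control rats held 522 to 567 and then 985 to 1194 CPM of Hsp90aa1, and 96.2 to 136 and then 185 to 270 CPM of Dnaja1. The difference between the arms in this change was tested as an interaction and was called for none of the 10 members and for 0 of 14515 genes with edgeR (614 at an unadjusted p under 0.05, none of them a member), so the arms are not shown to differ.

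Hspa8 and Hsph1 lay on the same side in both arms without passing the test. Hspa8, the constitutive HSP70, held 562, 194 and 134 CPM at day 4 and 813, 648 and 451 CPM at day 31 in the control group, with overlap through control rat 1 of day 4 (1.10 ± 0.51, edgeR adjusted p = 0.475). In the hNSCs group it went from 46.7, 253 and 248 CPM to 585, 669 and 914 CPM without overlap (1.98 ± 0.52, adjusted p = 0.0622). Hsph1 held 189, 165 and 195 CPM at day 4 and 367, 307 and 391 CPM at day 31 in the control group (0.96 ± 0.31, adjusted p = 0.276). In the hNSCs group it held 173, 184 and 133 CPM and 328, 357 and 414 CPM (1.17 ± 0.32, adjusted p = 0.0698). The median log2 fold change of the 10 members was 0.98 in the control and 1.12 in the hNSCs group, while the median over all genes was 0.11 and 0.32.

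**Figure D2:**
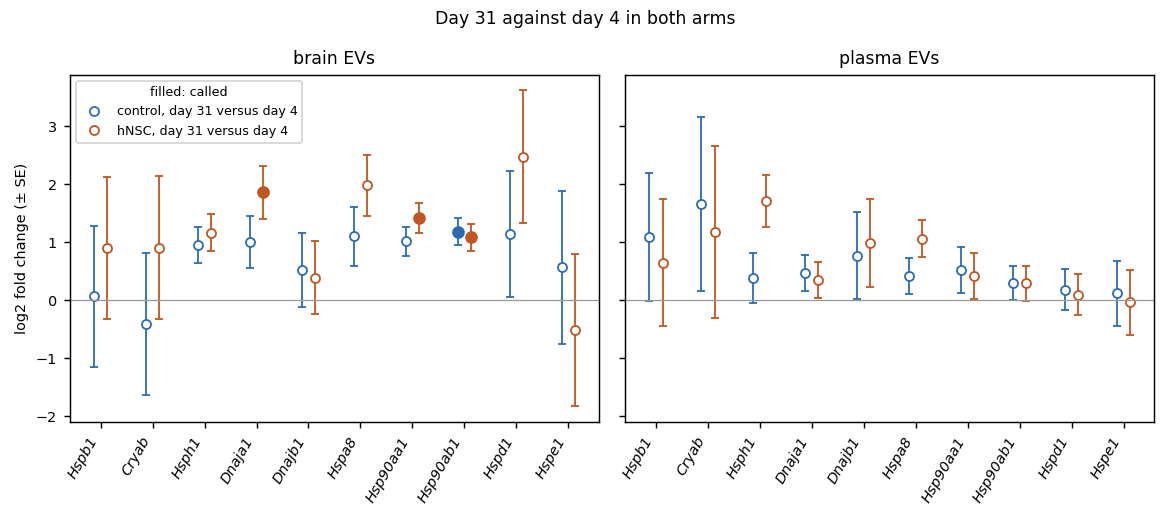
Log2 fold change of day 31 against day 4 (vertical axis, with SE) for each of the 10 transcripts in brain EVs and plasma EVs, in the control and hNSCs arms, with called changes filled. In brain EVs 9 of 10 estimates are positive in each arm and 4 are called, while no plasma estimate is called.

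Day 31 also stood apart when both arms were read together as a description. The 6 libraries of day 31 were above the other 15, healthy rats included, for 3 of the 10 members, where this holds for 0.682% of the genes tested. Hspd1, the HSP60 gene, was one of them with 115 to 176 CPM (median 138) against 0 to 88.6 CPM (median 38.7). Dnaja1 held 185 to 270 CPM against 27.3 to 140 CPM, and Hsp90aa1 held 881 to 1389 CPM against 277 to 695 CPM. Hsph1 (307 to 414 CPM against 93.4 to 286) and Hsp90ab1 (2174 to 3303 CPM against 918 to 1719) were added when the 12 libraries of day 4 and day 10 alone were compared, which gives 5 of 10 members against 2.24% of genes. Healthy rats lay between, with 239 to 351 CPM of Hsph1 and 1746 to 2329 CPM of Hsp90ab1. Hspe1, the partner of Hspd1, overlapped between all days. In plasma EVs no member and 0% of genes met either condition.

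Several measures moved with the day. The share of counts on annotated genes was highest at day 31, as given above. Neuron markers summed to 2933 to 5320 CPM at day 31 and 1623 to 2795 CPM at day 4, without overlap, and all 5 of them had positive changes in each arm, none of which was called. Oligodendrocyte markers went the other way (1550 to 1835 against 3659 to 6057 CPM, with 1 of 5 called as lower in each arm), as did endothelial markers (103 to 183 against 213 to 484 CPM), while microglia markers (106 to 294 against 246 to 544 CPM) and astrocyte markers (1642 to 5052 against 2837 to 4636 CPM) overlapped. The part of cell type composition and of the annotated share in the chaperone changes was not tested. With every library thinned to the same number of counts, 5 members were called in the hNSCs arm (Hsph1, Dnaja1, Hspa8, Hsp90aa1 and Hsp90ab1) and Hsp90ab1 alone in the control arm. The share of all genes called after thinning is not given, so these counts describe the setting only.

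These calls rest on 3 rats a group. The call of Hsp90ab1 in the control arm ended without any of the 6 libraries (edgeR adjusted p from 0.0567 without control rat 2 of day 31 to 0.211 without control rat 3 of day 31). That of Dnaja1 in the hNSCs arm also ended without any of its 6 libraries (0.0653 without rat 1 of day 4 to 0.199 without rat 3 of day 31). Hsp90aa1 lost its call in the hNSCs arm without rat 1 of day 4 (0.0537) or rat 3 of day 31 (0.0696), and Hsp90ab1 without rat 1 of day 4 (0.117) or rats 2 or 3 of day 31 (0.076 and 0.145). On the FPKM scale, where limma called 10402 of 14515 genes in the hNSCs arm with a pseudocount of 0.1, 9 members were called.

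Among the other chaperones, none of 55 was called from day 4 to day 31 in the control arm, where 43 of the 55 estimates were positive (median 0.46). In the hNSCs arm 46 were positive (median 0.66) and a single one was called. This was Hspa1a, which fell from 110, 241 and 180 CPM to 14.6, 27.6 and 35.2 CPM (-2.78 ± 0.64, edgeR adjusted p = 0.0291), the opposite direction to Dnaja1 and the HSP90 genes. The call ended without rats 2 or 3 of day 4 (0.0671 and 0.0553) or rats 1, 2 or 3 of day 31 (0.172, 0.104 and 0.121). Hspa1a was also lower at day 31 in the control arm, without overlap and without a call. It held 299, 114 and 129 CPM there at day 4 and 53.9, 34.9 and 26.0 CPM at day 31. All 8 genes of the cytosolic chaperonin TRiC were positive in the hNSCs arm (median 0.94) and 7 of 8 in the control arm (median 0.49), without a call.

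From day 4 to day 10 no member was called in brain EVs in either arm, where 0% and 0.0758% of genes were called in the control and hNSCs group. Without adjustment, 1 member in the control and 2 in the hNSCs group had p under 0.05 with edgeR, beside 898 and 2362 of all 14515 genes. These members were Hspb1 (-2.73 ± 1.31 and -3.16 ± 1.40) and Hspe1 in the hNSCs group (-3.11 ± 1.45), and each of these values includes at least 1 library at 0 counts on day 10. Without hNSCs rat 1 of day 10, edgeR called Cryab and Hspe1 in the hNSCs arm. That rat held the only counts of both genes in its group, and the 2 libraries left were at 0. The share of all genes called in that fit is not given, so these calls describe the setting only.

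The third question was what hNSCs changed. Between the hNSCs and control groups no chaperone of brain EVs was called at day 4, 10 or 31, and edgeR called 0% of all genes at each of these days (1093, 1945 and 13 genes with an unadjusted p under 0.05, none of them a member). DESeq2 and limma called no member either. The nearest to the limit at day 4 was Dnaja1, at 107, 96.2 and 136 CPM in control and 85.3, 49.2 and 45.1 CPM in hNSCs rats, a log2 fold change of -0.92 ± 0.45 (edgeR adjusted p = 0.667). Dnaja1, Hspb1 (19.1 to 39.2 CPM in control and 6.43 to 14.8 CPM in hNSCs rats) and Hsp90aa1 (522 to 567 and 277 to 489 CPM) did not overlap between the groups of day 4 and were lower in hNSCs rats, which makes 3 of 10 members where this holds for 6.82% of genes. At day 10 and day 31 the groups overlapped for each of the 10 genes, and Hsp90ab1, for example, held 2919 to 3303 CPM in control and 2174 to 3294 CPM in hNSCs rats.

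**Figure D3:**
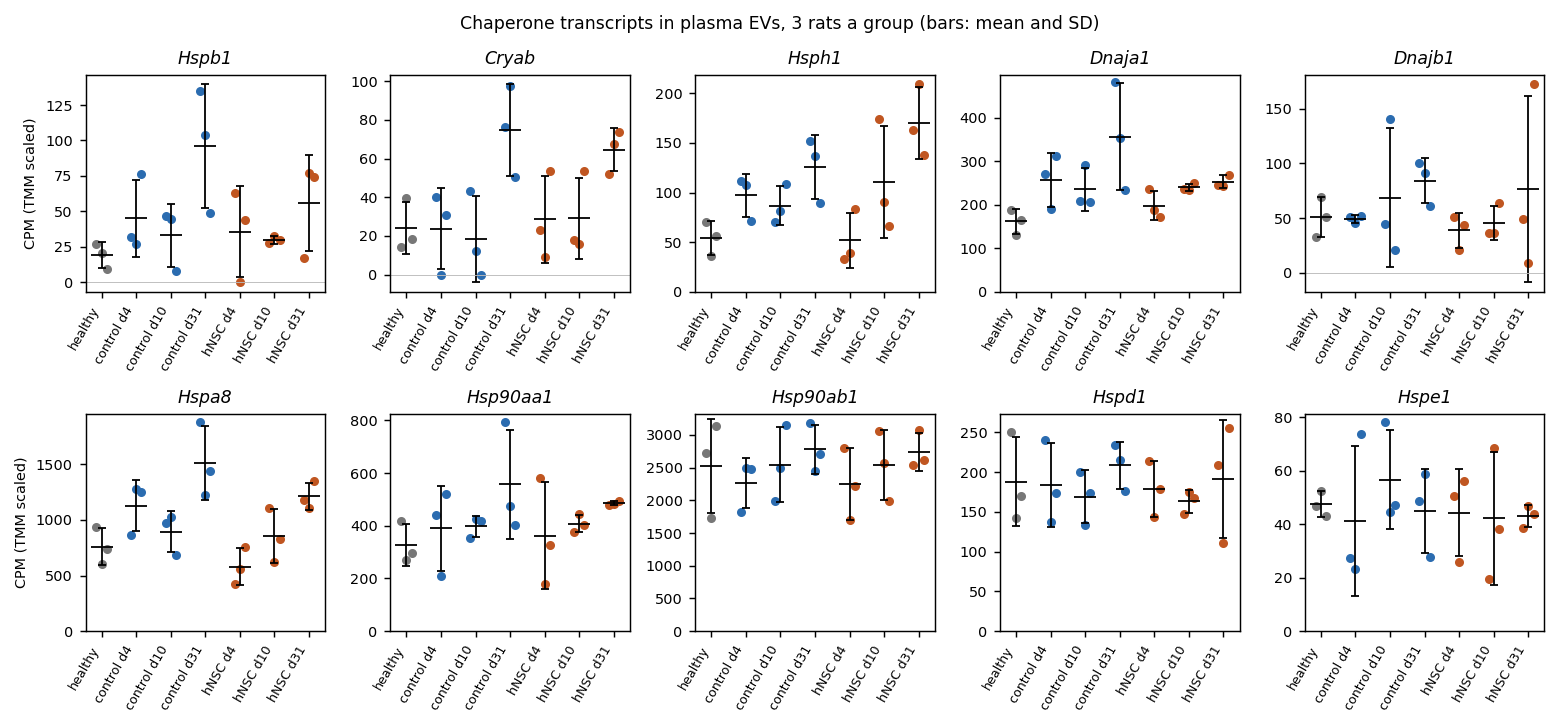
TMM-scaled CPM (vertical axes) of the 10 chaperone transcripts in plasma EVs of the 7 groups, with 1 point a rat and a bar for the mean and SD of 3 rats. Cryab and Hspb1 have libraries at 0 beside other rats of the same group at 12.2 to 62.9 CPM, and Hsp90ab1 shows similar ranges in all groups.

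In plasma EVs no member was called in any comparison of groups. Against healthy rats, 0.0679%, 0% and 0% of 14720 genes were called in the control group at days 4, 10 and 31. With an unadjusted p under 0.05, edgeR found 1, 0 and 3 members, beside 862, 825 and 699 of all 14720 genes. Dnaja1 held 189, 132 and 166 CPM in healthy rats and 481, 353 and 234 CPM in the control group at day 31, without overlap (log2 fold change 1.14 ± 0.32, adjusted p = 0.844). Hspa8 held 934, 605 and 741 CPM in healthy rats and 1880, 1224 and 1437 CPM at day 31. DESeq2 called Hspa8, Dnaja1 and Hsph1 in this comparison, out of 682 genes that it called in all.

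From day 4 to day 10 no member was called (0.387% of genes in the control and 0.476% in the hNSCs arm). At an unadjusted p under 0.05, edgeR found 0 and 1 members, beside 1104 and 442 of all 14720 genes. From day 4 to day 31, 0.17% of genes were called in the control arm and 0.645% in the hNSCs arm, and no member was among them. With edgeR, 0 and 2 members had an unadjusted p under 0.05, beside 671 and 1453 of all 14720 genes. Hsph1 had the largest estimate in the hNSCs arm, with 32.8, 39.4 and 83.1 CPM at day 4 and 163, 209 and 138 CPM at day 31 (1.71 ± 0.44, edgeR adjusted p = 0.112), without overlap. Hspa8 held 425, 563 and 754 CPM and then 1178, 1111 and 1350 CPM (1.06 ± 0.32, adjusted p = 0.231). DESeq2 called both genes here, and edgeR called Hsph1 without hNSCs rat 3 of day 4. The number of all genes called in these 2 settings is not given, so such calls describe the settings only. Hsp90ab1, called in both arms of brain EVs, had 0.29 ± 0.30 in each arm of plasma EVs. Whether the change from day 4 to day 31 in the control group differed between plasma and brain EVs was tested within rats, and no member passed (edgeR, 0.0118% of 16945 genes called). At an unadjusted p under 0.05 there were 0 members and 281 genes.

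Between hNSCs and control rats, plasma EVs gave no called member at day 4 (0.00679% of genes), day 10 (0%) or day 31 (0%). At an unadjusted p under 0.05, edgeR found 1, 0 and 0 members, beside 580, 598 and 1261 of all 14720 genes. The member of day 4 was Hspa8, with 864, 1276 and 1248 CPM in control and 425, 563 and 754 CPM in hNSCs rats, which do not overlap (-0.96 ± 0.32, adjusted p = 0.814). DESeq2 called it. The change of the hNSCs effect from day 4 to day 31 was not called for any member in plasma (0.00679% of genes). Of the members, Hsph1 alone had an unadjusted p under 0.05 in edgeR (1.34 ± 0.61, adjusted p = 0.477), as had 1466 of all 14720 genes. In the stroke comparison at day 4, the effect on Hspb1 in plasma against that in brain was not called by edgeR (adjusted p = 0.585), which called 0.0236% of 16945 genes and no member. No size is given, because Hspb1 was at 0 in the healthy brain libraries. In plasma it held 9.29 to 27.2 CPM in healthy rats and 26.9 to 76.3 CPM in the control group at day 4, which overlap. DESeq2 called Hspb1 and Hsph1 in this comparison of tissues, again without a number for all genes.

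Among the members, zero counts in plasma were found for the small heat shock protein genes alone. Cryab was at 0 counts in control rat 2 of day 4 and control rat 3 of day 10, while the other 19 plasma libraries held at least 71 counts (median of all 664). Hspb1 was at 0 in hNSCs rat 2 of day 4, beside 62.9 and 44.1 CPM in the other two rats. The lowest count of the other 8 members in plasma was 164. Dnajb1 also varied widely without a zero, from 8.80 to 172 CPM in the hNSCs group at day 31 and from 20.8 to 140.3 CPM in the control group at day 10.

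The fourth question was how the same chaperones compare between brain and plasma EVs of the same rat. Plasma EVs held more of most of these transcripts than brain EVs, and in a model of all 42 libraries with a term for each rat, 6 members were called as higher and Hsph1 as lower. This is 7 of 10, in a comparison where 48.3% of 16945 genes were called and the median of all genes was -0.33. Hspa8 ranged from 31.3 to 909 CPM (median 195) in brain and from 480 to 2296 CPM (median 1163) in plasma, scaled over all 42 libraries, and was higher in plasma in 21 of 21 rats (log2 fold change 2.24 ± 0.20, edgeR adjusted p = 1.29e-08). Dnaja1 was likewise higher in 21 of 21 rats (medians 91.3 and 274 CPM, 1.53 ± 0.18, adjusted p = 6.01e-07). The mitochondrial chaperonin pair was also higher in 21 of 21 rats, with Hspd1 at medians of 60.2 and 210.4 CPM (2.53 ± 0.52, adjusted p = 0.000375) and Hspe1 at 11.3 and 52.4 CPM (2.68 ± 0.55, adjusted p = 0.000391). A difference in the same direction in 21 of 21 rats was found for these 4 members and for 6.75% of the genes tested.

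Hspb1 was higher in plasma in 20 of 21 rats (medians 9.86 and 39.1 CPM, edgeR adjusted p = 0.000322). Its fitted log2 fold change (3.79 ± 0.74) averages over 7 groups, of which the healthy one was at 0 in brain, and is not a measured size. Hsp90ab1 was higher in 17 rats, at 503 to 3273 CPM in brain and 2029 to 3878 CPM in plasma (1.01 ± 0.14, adjusted p = 4.84e-06). Cryab (1.48 ± 0.94, adjusted p = 0.216, 16 of 21 rats) and Dnajb1 (0.75 ± 0.33, adjusted p = 0.0685, 17 of 21 rats) were not called. Hsp90aa1 did not differ beyond its error (-0.19 ± 0.18, adjusted p = 0.458, higher in plasma in 8 of 21 rats).

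Hsph1 was the exception. It ranged from 51.2 to 412 CPM (median 201) in brain and from 37.1 to 234 CPM (median 105) in plasma, was lower in plasma in 20 of 21 rats (14.4% of genes were lower in at least 20), and had a log2 fold change of -0.97 ± 0.19 (edgeR adjusted p = 0.000201) on the TMM scale but 0.89 on the log2(FPKM + 1) scale, so that its direction depends on the scaling. For the healthy rats, the model of all 42 libraries called 3 members, against 11.8% of 16945 genes. These were Hspa8 (2.34 ± 0.52, edgeR adjusted p = 0.00509) and Hspb1 (adjusted p = 0.0087, with no size given because brain was at 0) as higher in plasma and Hsph1 (-1.92 ± 0.51, adjusted p = 0.0163) as lower. A separate fit of these 3 rats alone called 2346 of 13771 genes, and of the members Hspa8 alone. Each of the 7 members called over all rats stayed called when any one of the 21 rats was left out. In these fits the trend of the dispersion and the set of genes were kept from all 42 libraries. Cell type markers and the number of annotated counts also differed between the tissues, as given above, and cannot be told apart from the tissue.

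**Figure D4:**
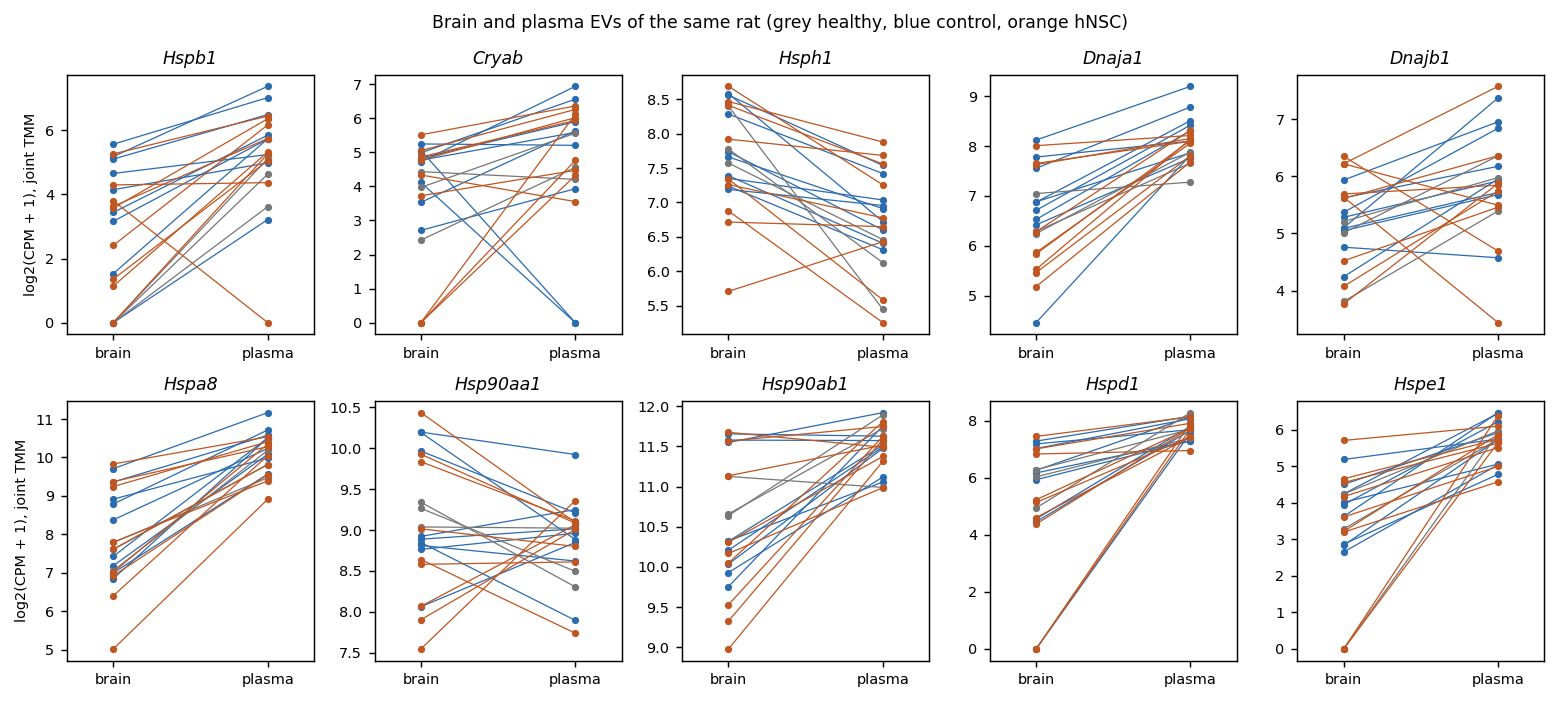
Log2 of CPM plus 1, scaled over all 42 libraries (vertical axes), in brain and plasma EVs with a line for each of the 21 rats and the arm in color. All lines of Hspa8, Dnaja1, Hspd1 and Hspe1 go up toward plasma, and 20 of 21 lines of Hsph1 go down.

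Ratios between members within a library do not depend on the scaling of that library, and they were added after the values had been seen, so they are given without a test. The ratio of Hsp90aa1 to Hsp90ab1 in FPKM was 0.212 to 0.410 (median 0.310) in brain and 0.0700 to 0.210 (median 0.143) in plasma EVs, and it was lower in plasma in 21 of 21 rats. The ratio of Hsph1 to Hspa8 was 0.207 to 2.30 (median 0.520) in brain and 0.0353 to 0.116 (median 0.0494) in plasma, also lower in 21 of 21 rats. Hspe1 to Hspd1 had medians of 0.700 and 0.938 and was lower in plasma in 6 and higher in 10 of the 16 rats in which both were detected. Of the summed FPKM of the 10 genes, Hspa8 held a median of 9.45% in brain and 22.4% in plasma, Hsp90aa1 16.7% and 6.91%, and Hsph1 5.06% and 1.3%. Hsp90ab1 held 52.8% and 50.5%, and its share was higher in plasma in 6 of 21 rats.

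Of the other chaperones 57 could be tested in the same model, of which 25 were called as higher and 9 as lower in plasma (median 0.67). All 8 subunits of the cytosolic chaperonin TRiC were higher (median 2.02), among them Cct5 (3.86 ± 0.37, edgeR adjusted p = 3.66e-08) and Tcp1 (3.18 ± 0.44, adjusted p = 4.93e-06). Of the 10 cochaperones of HSP90, 5 were higher and 1 was lower, led by Ptges3, which encodes p23 (2.97 ± 0.23, adjusted p = 2.93e-09). Of the 8 exchange factors and partners of HSP70, Bag1 (2.39 ± 0.28), Bag3 (1.06 ± 0.37) and St13 (0.87 ± 0.22) were higher and none was lower. The HSP70 and HSP110 list had 1 of 6 higher and 3 lower, and the lower ones included Hspa4l (-6.18 ± 1.15), which encodes an HSP110 protein as Hsph1 does. Hspa1a was lower on the TMM scale (-1.20 ± 0.30, adjusted p = 0.00245) but at 0.56 on the log2(FPKM + 1) scale. Of the 9 J proteins, 4 were higher, for example Dnajb4 (1.57 ± 0.49), and 2 were lower, Dnajc6 and Dnajb5 (-4.49 ± 1.08 for the latter). Hspb6 was the only further small heat shock protein called (2.97 ± 1.08, higher, adjusted p = 0.0276), and Hsf1 was not called (-1.13 ± 0.58, adjusted p = 0.114).

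The reads of some members may be shared with copies elsewhere in the genome. RefSeq lists 33 pseudogenes of Hspa8, 23 of Hsp90ab1, 20 of Hspd1, 16 of Hsp90aa1, 4 of Dnaja1 and 1 of Hspe1. None of these is in the count table under its name. The assignment of reads that match several places is not given in the sources used here. LOC103692716, a locus without a name in the RefSeq table that was noticed after the values were seen, held 53.3% to 91.4% of the counts of Hsp90aa1 in brain (median 71.9%) and 40.9% to 77.2% in plasma. Levels of these 6 genes are uncertain for this reason. A share of this kind was taken for Hsp90aa1 alone, and the extent for the others is not known. For Hspb1, Cryab, Hsph1 and Dnajb1 RefSeq holds none named after the gene, and copies under other names were not searched for.

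The last question was whether plasma EVs follow brain EVs from rat to rat. Pearson r of FPKM over the 21 rats was positive for all 10 members, and the median over 3369 genes was 0.117. No gene of the 3369 and no member passed at an adjusted p under 0.05 in a permutation test (0% of genes, lowest adjusted p = 0.141, with 7 members and 246 positive and 9 negative genes at an unadjusted p under 0.05). For Hsph1, Hsp90ab1, Hsp90aa1, Hspd1 and Dnaja1 the brain FPKM of the 6 rats of day 31 lay apart from those of the other 15 rats, for example 27.5 to 58.6 against 1.26 to 11.1 for Hsp90aa1, so no pooled value is given for them. Hspb1 had r = 0.80 (permutation p = 0.00013) and rho = 0.64 (p = 0.00196), with an adjusted p of 0.141 for r. Cryab had r = 0.74 (permutation p = 0.00021) and rho = 0.64 (p = 0.00249), with an adjusted p of 0.141. Hspa8 had r = 0.66 and rho = 0.55, Dnajb1 0.50 and 0.28, and Hspe1 0.26 and 0.17, with adjusted p of 0.293, 0.596 and 0.864 for r.

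Without the 2 rats farthest from the median brain value, r was 0.51 for Hspb1, 0.71 for Cryab, 0.46 for Hspa8, 0.46 for Dnajb1 and 0.24 for Hspe1. Within the 15 rats outside day 31, r ranged from -0.24 to 0.56 (median 0.149, against 0.0347 over all genes), and Hspb1 had the highest (0.56, permutation p = 0.0411, adjusted p = 0.999). Within the 6 rats of day 31, r ranged from -0.04 to 0.70 (median 0.363, against 0.0466 over all genes), and none had a permutation p under 0.05. Cryab had 0.25 within the 15 rats and -0.04 within the 6, so its pooled relation was not found within either set. Hspa8 had 0.11 within the 15 and 0.34 within the 6, Dnajb1 -0.10 and 0.35, and Hspe1 0.22 and 0.37. For Hspa8 and Dnajb1 the pooled r was thus higher than that within either set. On the TMM scale r over 21 rats was 0.37 for Hspb1, 0.02 for Cryab and 0.65 for Hspa8. Over the 10 members it had a median of 0.257 (0.0171 over all genes). An unadjusted permutation p under 0.05 was found for 2 members, beside 123 positive and 48 negative genes of 3369. No member had an adjusted one under 0.05. With group means removed, the median over members was 0.274 in FPKM, against 0.00754 over all genes, with 9 of 10 positive. Of the members 2 had an unadjusted permutation p under 0.05, beside 196 positive and 131 negative genes of 3369. On the TMM scale the median over members was then 0.0100, against 0.0198 over all genes. There 5 of 10 were positive and none had an unadjusted permutation p under 0.05, so the relation was not found within groups on that scale. FPKM in both tissues moves with the share of annotated reads in a library, and its part in these correlations was not tested.

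**Figure D5:**
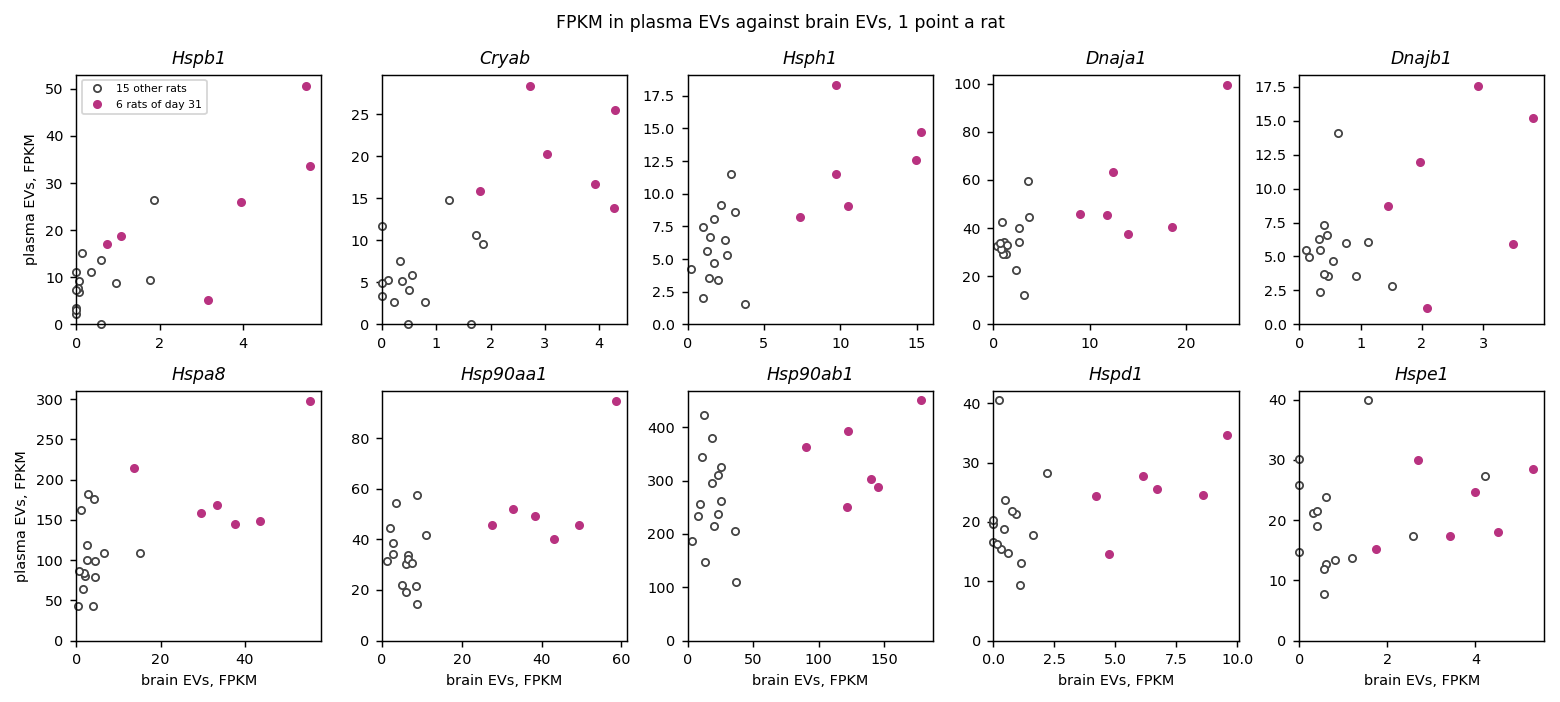
FPKM of each transcript in plasma EVs (vertical axes) against brain EVs (horizontal axes), with 1 point for each of 21 rats and the 6 rats of day 31 filled. The rats of day 31 lie to the right of all others for Hsph1, Dnaja1, Hsp90aa1, Hsp90ab1 and Hspd1, and r within the other 15 rats is between -0.24 and 0.56.

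Within a tissue most pairs of members had positive correlations across libraries. Of the 45 pairs among the 10 genes, 43 had a positive Pearson r of log2(CPM + 1) over the 21 brain libraries (median 0.45, against 0.16 over pairs of all genes), and 40 over the 21 plasma libraries (median 0.34, against 0.04). With group means removed the medians were 0.31 and 0.23, against 0.10 and 0.03, with 36 and 34 positive pairs and r as low as -0.42 and -0.46. Dnajb1 had r from -0.23 to 0.23 with 8 of the other 9 members in brain and 0.45 with Hspa8. These are correlations over libraries that share depth and scaling, and they are given as a description. Hsp90aa1 and Hsp90ab1 were the closest pair in brain EVs as measured (r = 0.92), while with group means removed it was Hsp90aa1 and Hspd1 (0.79, against 0.73 for the HSP90 pair). Of all genes, the one most like Hsp90aa1 in brain was LOC103692716 (0.96). The 3 most like Cryab were Taf11 (0.96), the J protein gene Dnajb4 (0.96) and LOC102547413 (0.95), and those most like Hspd1 were Dcun1d5 (0.94), Dpysl3 (0.92) and Ndufs3 (0.92). For Hspb1 they were Pros1 (0.89), Gnpda1 (0.85) and Ctsc (0.85). In brain Cryab and Hspd1 were at 0 counts in 3 libraries each and Hspb1 in 5. The part of such zeros in these values of r was not tested.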

How the data were processed

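Brain and plasma EV libraries of 21 rats (42 mRNA libraries, 7 groups of 3) were analysed, and the groups, rats and days were taken from the labels. Per the labels and the study's methods, total RNA libraries were made without molecular identifiers, sequenced in pairs and aligned to Rnor_6.0 with Bowtie2. The versions of Bowtie2 and StringTie, the strand setting and the handling of multiply mapped reads are not given in the sources used here. The authors deposited raw counts per gene and FPKM from StringTie, summed over transcripts, without pooling replicates. MicroRNA tables and sequences of new genes were not analysed here. The 18782 annotated of 26637 rows were used.

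Counts were tested in edgeR 4.0.16 (TMM, filterByExpr, quasi-likelihood, 7 groups per tissue), and all 42 libraries in a model with a term for each rat and a tissue effect per group. Calls needed an adjusted p (Benjamini-Hochberg, over all genes tested) under 0.05 together with a change over 1.5-fold, which are the limits of the study, where limma was used. The SE of a log2 fold change is its size divided by the square root of F. FPKM were not used for the main tests, and limma 3.58.1 on log2(FPKM + 1) or log2(FPKM + 0.1) and DESeq2 1.42.0 served as alternatives, beside another filter, only the groups compared, a replicate block, unannotated genes kept, hemoglobin genes left out, thinned counts, libraries under 1500000 annotated counts left out, and each rat left out in turn. Correlations used two-sided permutation tests with 100000 resamples over genes with a mean FPKM of at least 1 in both tissues. Tests were checked on simulated counts. Software was R 4.3.3 and Python 3.11.15.

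The 10 members, the lists of 60 other chaperones and the markers were chosen with earlier results of these data known. Text names all members, Hspa1a, Bag3, Hsf1, up to 5 called genes a list of other chaperones where a member was called, and the 3 genes most like a member, of which 1 is not reported here. Replicates are separate rats, and 3 against 3 cannot give an exact permutation p under 0.1, so single-gene tests rest on the fit over all genes. Brain and plasma libraries were paired by the rat in the labels. Replicate numbers mark nothing else in the labels. Same-numbered libraries deviated together with a correlation over 0.1 in every pair in a single comparison, brain hNSCs against control at day 31 (0.25, 0.28 and 0.33), where the fit with the replicate number as a block also called 0 members.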

Additional observations from a re-analysis of the deposited data

How the results depend on the processing

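The 3 rats a group, the low annotated counts of brain libraries and the share of annotated reads limit these results most. All called changes of members kept their direction under every alternative except Hsph1 in plasma against brain, which went from -0.97 to 0.89, as did Hspa1a from -1.20 to 0.56, under limma on log2(FPKM + 1), a scale that follows the annotated share. For single genes, 99 values under other settings and 180 with a library or rat left out kept their side of the limit, while 16 and 30 lost the call.

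Counts of called members moved as follows. For most settings the number of all genes called is not given beside them. Such counts describe the setting and not a trait of the members. In brain against healthy rats at day 4, 1 member became 0 with limma on log2(FPKM + 1), with thinned counts and without libraries under 1500000 annotated counts. At day 10 it was 1 with DESeq2 instead of 0. At day 31 it was 1 with DESeq2 and with unannotated genes kept, and 10 with limma at either pseudocount, which called 8273 (pseudocount 1) and 11741 (pseudocount 0.1) of 14515 genes. From day 4 to day 31 the control arm gave 2 with DESeq2, 8 and 5 with limma (pseudocounts 1 and 0.1), 4 with the 2 groups alone and 0 with unannotated genes kept, in place of 1. The hNSCs arm gave 5 with DESeq2, 10 and 9 with limma and 5 with thinned counts, in place of 3. With limma at a pseudocount of 0.1, most of all genes were called in this arm, as given above. In plasma, DESeq2 called 3 at day 31 against healthy rats, 1 for hNSCs at day 4 and 2 from day 4 to day 31 in the hNSCs arm, in place of 0. In plasma against brain, 1 member was called in a fit of the healthy rats alone in place of 7 over all rats (3 for healthy rats in the model of all libraries), and DESeq2 called 2 in the day 4 stroke effect between tissues, in place of 0. The cause was not tested. With each library left out in turn, the counts ranged from 0 to 1 (brain, day 4 against healthy), 0 to 0 (control arm, day 31 against day 4), 0 to 2 (hNSCs arm, day 31 against day 4), 0 to 2 (hNSCs arm, day 10 against day 4) and 0 to 1 (plasma, hNSCs arm, day 31 against day 4).

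With the replicate number as a block, Hspb1 at day 4 (edgeR adjusted p = 0.02) and Hsp90ab1 in the control arm (1.18, adjusted p = 0.0321) stayed called, and Dnaja1 in the hNSCs arm was lost (1.89, adjusted p = 0.0604), leaving 2 members there. No other call of a member changed with the block.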
